A study of Mus musculus with 42 samples.

Results

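The comparison described here set offspring of fathers given the higher dose of DEHP, a phthalate plasticizer, against offspring of fathers given the lower dose, by RNA sequencing on embryonic day 7.5. It was defined by the table's own columns: the high 1 and high 2 libraries against the low 1 and low 2 libraries, which are 4 of the 6 libraries of the expression table and 4 libraries among the 42 samples of the series. Every line with an Ensembl mouse gene identifier was a member (12988 genes), and 12987 of them reached 1 CPM (a library's counts scaled to a fixed total) in at least 2 libraries and were tested. The other 2 libraries, control 1 and control 2, came from fathers given vehicle. Their values are printed beside the others and they add to the estimate of spread.

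C57BL/6J males, 8 weeks old when dosing began, received 2.5 mg/kg/day in the low group, 25 mg/kg/day in the high group or the vehicle alone, over 67 days, and were then mated with females that were not exposed. The offspring were wild type, were labelled as crosses of C57BL/6 and DBA/2J and as male, and received no treatment themselves. The dose therefore describes the father and not the embryo. For RNA the labels list 12 samples, 4 per treatment, split evenly between embryonic and extra-embryonic tissue. The columns of the table name a treatment and are numbered, without a tissue, and nothing says that the 2 libraries of a group came from separate litters or fathers, so the p-values below measure only the spread between these libraries.

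On embryonic day 7.5 the mouse embryo is gastrulating. Epiblast cells pass through the primitive streak under Nodal, Wnt and FGF signals and become mesoderm and endoderm. The epiblast left in front becomes neural plate, and a first set of Hox genes comes on behind as retinoic acid, made in the new mesoderm by Aldh1a2, appears. The stage is short, and embryos of a single litter can differ by several hours of development, so RNA levels of streak, retinoic acid and Hox genes change steeply with age.

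Relative depth, read from the smallest step between the CPM values of a library, was 152.8 and 161 in the high, 189 and 193.6 in the low and 185 and 189 in the control libraries, in units of 1e6 steps. The labelled tissue could be checked only by marker genes. Epiblast and streak markers were high in all 6 libraries (Pou5f1 at 357 to 541 CPM and T, which encodes brachyury, at 204 to 287 CPM), and so were the visceral endoderm markers Afp, at 95.6 to 169 CPM, and Apoa1, at 124 to 299 CPM. The defining trophoblast markers Elf5, Esx1 and Tpbpa were not analysed here. The male label was checked with sex-linked genes. Xist, expressed from the inactive X of females, was at 442 to 742 CPM, and the Y-linked gene Ddx3y was at 6.74 to 17.8 CPM, both in all 6 libraries, which goes against libraries of male embryos alone. High 2 had the most Xist and the least Ddx3y. Of 6 sex-linked genes tested 2 had a positive and 4 a negative log2 difference of high minus low, with 0 without overlap in either direction. Their median was -0.45, or -0.29 without low 1. The share of each sex in the libraries was not tested. Library low 1 stood apart from low 2: across all genes the standard deviation of the difference between the low libraries was 0.23 on the log2 scale, against 0.16 between the high libraries and 0.20 between the controls. Medians of gene lists that moved by over 1.5 times without low 1 are given below without it as well.

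No single gene passed the test between the doses. Limma was run on log2(CPM + 1) with its variance allowed to follow the mean and all 3 groups fitted together, and calling required an adjusted p (Benjamini-Hochberg) below 0.05. It called 0 of 12987 genes (0%), with the smallest adjusted p at 0.0998 for Lefty2. At an unadjusted p under 0.05 there were 739 genes with higher values in the high group (5.69%) and 288 with lower values (2.22%). With the high and low libraries alone in the fit 9 genes were called (0.0693%). Of all genes, 57.5% had a positive difference of high minus low, and the median difference was 0.01 on the log2 scale. Both high libraries lay above both low libraries in 21.8% of genes and below both in 11.8%, and these shares are the background for the counts in each group of genes below. Differences are given on the log2(CPM + 1) scale throughout, and where a pair of values is set against another, it is low 1 and low 2 against high 1 and high 2. Scaling by quantiles or by median ratios moved the split: the higher genes were 72% of those at an unadjusted p under 0.05 with CPM as deposited, 57.5% after quantile normalization and 62.7% with median-ratio size factors.

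**Figure D1:**
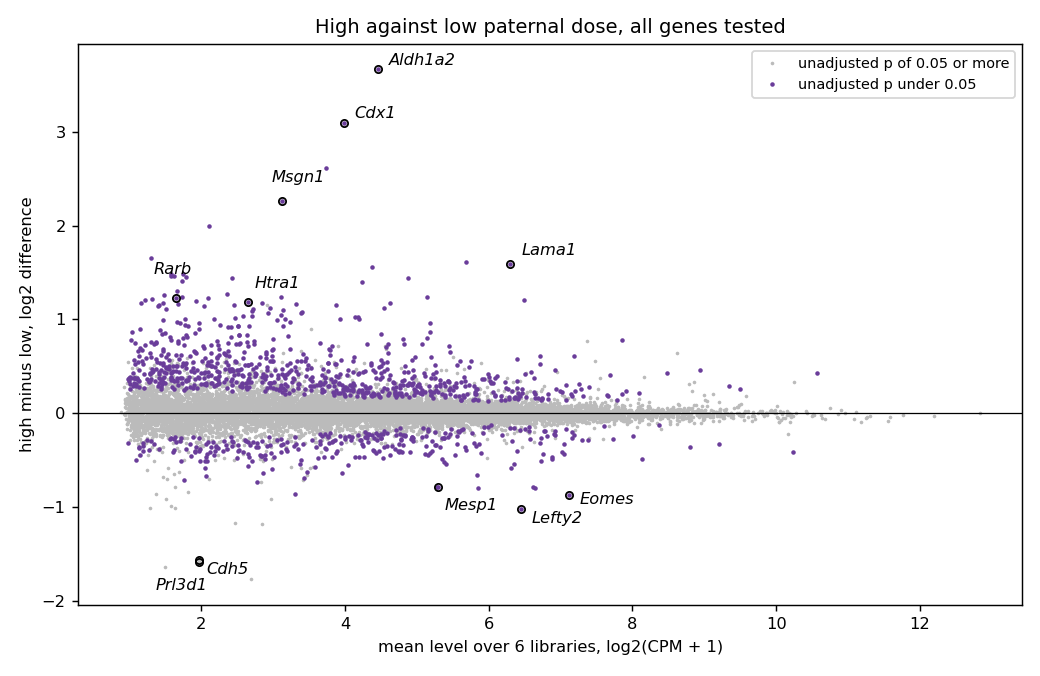
Each point is 1 of the 12987 genes tested: the x axis is its mean level over the 6 libraries in log2(CPM + 1) and the y axis is the difference of the high minus the low group on the log2 scale. Purple points have an unadjusted p under 0.05, and circled genes are named in the text. Of the circled genes Aldh1a2 and Cdx1 stand highest (differences of 3.66 and 3.10), and Lefty2 is among the lowest purple points (-1.02).

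The genes at an unadjusted p under 0.05 differed in kind between the directions. The 739 with higher values had a median level of 8.39 CPM and a median gene span of 44.9 kb, whereas the 288 with lower values were at 17.9 CPM and 23.6 kb and all genes tested at 20.5 CPM and 23.7 kb. Among all genes tested the difference reached 2-fold in 63 upward and 9 downward. Of these, 62 and 1 had an unadjusted p under 0.05 by limma. Without low 1 the numbers among all genes were 23 and 0. Low 1 was farther from the high mean than low 2 in 89.7% of the 739 and 84.7% of the 288, against 62.1% of all genes. Without low 1, 289 of the 739 and 85 of the 288 had an unadjusted p under 0.05. Both control libraries fell between the low and the high libraries in 29.2% of the 739 and 19.8% of the 288, against 3.01% of all genes. The 739 and the 288 were chosen for their gap between the doses, which leaves more room for the controls.

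The largest upward difference was that of a retinoic acid gene. Aldh1a2 (chromosome 9, 71215789 to 71296243), whose enzyme is the main source of retinoic acid in the gastrula, was at 1.36 and 10.3 CPM in the low-dose libraries, 35.3 and 25.8 CPM in the controls and 59.7 and 69.5 CPM in the high libraries. The groups did not overlap, and the 2 low libraries differed from each other more than the high libraries did. The difference of high minus low was 3.66 (SE 0.60, adjusted p = 0.233 by limma), and without low 1 it was 2.54. Of the 5 genes tested from the list of retinoic acid synthesis, 3 were higher without overlap and at an unadjusted p under 0.05 (Aldh1a2, Rdh10 and Dhrs3). Another 1 was lower (Aldh1a3). Dhrs3 is on the list though its enzyme works against synthesis. Rdh10, which makes retinaldehyde from retinol, was at 10.2 and 11.1 CPM against 12.3 and 14.8 CPM. Dhrs3, which turns retinaldehyde back to retinol, was low in level, at 1.63 and 1.48 against 2.29 and 2.13 CPM. Aldh1a3, another retinaldehyde dehydrogenase, was also low in level, at 2.55 and 2.80 against 1.93 and 1.67 CPM. Rdh11, a further retinol dehydrogenase, overlapped at 36.7 and 27.8 against 27.01 and 29.3 CPM.

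Carriers and receptors of retinoic acid had higher values in the same libraries, 8 of 10 with a positive difference and 7 of 10 without overlap, with a median of 0.26 against 0.01 over all genes. Crabp2, the carrier that delivers retinoic acid to its nuclear receptors, was at 7.07 and 15.4 CPM in the low, 25.3 and 19.3 CPM in the control and 31.3 and 34.8 CPM in the high libraries (difference 1.56, SE 0.29, adjusted p = 0.256 by limma). Its order by library was that of Aldh1a2, with low 1 lowest and high 2 highest. Crabp1, a cytoplasmic carrier, was at 11.3 and 18.1 against 25.4 and 23.8 CPM. Rarb, a receptor whose own gene is switched on by retinoic acid, was low in level but well separated, at 0.813 and 1.46 CPM in the low, 2.29 and 1.56 CPM in the control and 4.05 and 3.85 CPM in the high libraries (difference 1.23, SE 0.18, adjusted p = 0.233 by limma). The broadly expressed receptors Rara, Rarg and Rxra also lay without overlap but with differences of only 0.13, 0.08 and 0.10. Rxrb and Rxrg had small negative differences and overlapped. Rbp4, which carries retinol in serum, overlapped at 75.2 and 106 against 98.2 and 147 CPM, and Stra6, the membrane receptor that takes retinol from it, was at 10.4 and 13.2 against 17.4 and 14.1 CPM.

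Cyp26a1, the enzyme that degrades retinoic acid, went the other way. It was at 102 and 69.2 CPM in the low and 67.3 and 67.1 CPM in the high libraries, with the controls at 72.5 and 74.7 CPM. The difference of -0.32 rested on low 1, and without that library it was -0.04. Rarb and Cyp26a1 are shown here because both are textbook targets of the retinoic acid receptors and their values nevertheless lay in opposite directions. The 250 bases before each transcription start, from RefSeq on GRCm38.p6, hold a direct repeat of the receptor half-site with 5 bases in between, given in capitals.
Rarb, chr14:16575477-16575726, minus strand: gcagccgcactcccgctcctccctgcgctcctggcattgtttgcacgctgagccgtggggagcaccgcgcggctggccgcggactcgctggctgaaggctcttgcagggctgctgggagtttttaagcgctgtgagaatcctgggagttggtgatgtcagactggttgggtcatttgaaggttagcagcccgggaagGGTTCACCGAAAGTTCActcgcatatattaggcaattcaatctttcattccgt
Cyp26a1, chr19:37697558-37697807, plus strand: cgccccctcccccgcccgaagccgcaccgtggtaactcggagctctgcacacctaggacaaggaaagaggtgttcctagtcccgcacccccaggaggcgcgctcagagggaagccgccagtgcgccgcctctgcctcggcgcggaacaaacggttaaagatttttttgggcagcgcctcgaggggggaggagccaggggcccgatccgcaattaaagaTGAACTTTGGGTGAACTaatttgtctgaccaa
The Rarb repeat reads on the strand of the gene, and the Cyp26a1 repeat on the opposite strand, where it reads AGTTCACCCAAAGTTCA. The half-site was searched with the letters AGGTCA, with the variant AGTTCA and also with the variant GGTTCA, on both strands, as direct repeats with 1, 2 or 5 bases between them, in windows from 250 bases before to 50 after the start. Of 30 named genes of the retinoic acid, Hox, Cdx and Wnt lists, 23 had such a window that was searched. The promoter of Cdx1 was not searched. The 2 shown held a repeat, against 118 of 27025 genes (0.44%) with a window. The letters CTTTGA, the core to which Tcf factors of the Wnt pathway bind, were searched on either strand. At least 1 window held them for 6 of the 23 genes (26.1%) and for 18.2% of all genes with a window. A match is a description of the letters and not of binding.

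All 6 Hox genes reported here, which set position along the body axis, had higher values in the high group without overlap and at an unadjusted p under 0.05. Their median difference was 0.97. Hoxb1, among the first Hox genes to come on, was at 9.09 and 27.1 CPM in the low, 36.1 and 27.5 CPM in the control and 46.9 and 42.8 CPM in the high libraries (difference 1.44, SE 0.40, adjusted p = 0.39 by limma). Hoxb2 was at 3.93 and 9.58 against 13.3 and 15.1 CPM. In both genes the controls were below both high libraries and above low 1, and low 2 was near control 2. Hoxa2, Hoxa3, Hoxb3 and Hoxd1 stayed at or under 3.15 CPM in every library, with differences from 0.57 to 1.22. Low 1 was the lowest of the 6 libraries in 6 of 6 Hox genes, against 2652 of all 12987 genes. Without low 1 the median was 0.55, and 5 of 6 had an unadjusted p under 0.05.

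The Cdx genes, caudal regulators upstream of Hox genes in the posterior embryo, were all higher without overlap. Cdx1 was at 2.56 and 7.54 CPM in the low, 20.6 and 9.72 CPM in the control and 51.7 and 41.2 CPM in the high libraries (difference 3.10, SE 0.43, adjusted p = 0.233 by limma). The high libraries thus stood above both controls as well as both low libraries, and the difference without low 1 was 2.46. Cdx2 was at 13.3 and 34.2 against 50.8 and 52.6 CPM and Cdx4 at 0.183 and 1.58 against 2.17 and 3.77 CPM. Other genes of the tail end lay the same way. Msgn1, which drives presomitic mesoderm, was at 0.721 and 6.59, 11.2 and 8.07 and 17.6 and 15.1 CPM in low, control and high (difference 2.26, SE 0.58, adjusted p = 0.354 by limma), and Nkx1-2, of the caudal epiblast, at 14.7 and 44.4, 77.1 and 50.1 and 78.7 and 82.2 CPM. The caudal genes were not uniform: of 20 tested, 11 lay higher and 3 lower without overlap, the latter being Mesp2, Evx1 and Lfng, with a median of 0.35, or 0.18 without low 1, and T itself overlapped at 212 and 287 against 255 and 204 CPM.

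**Figure D2:**
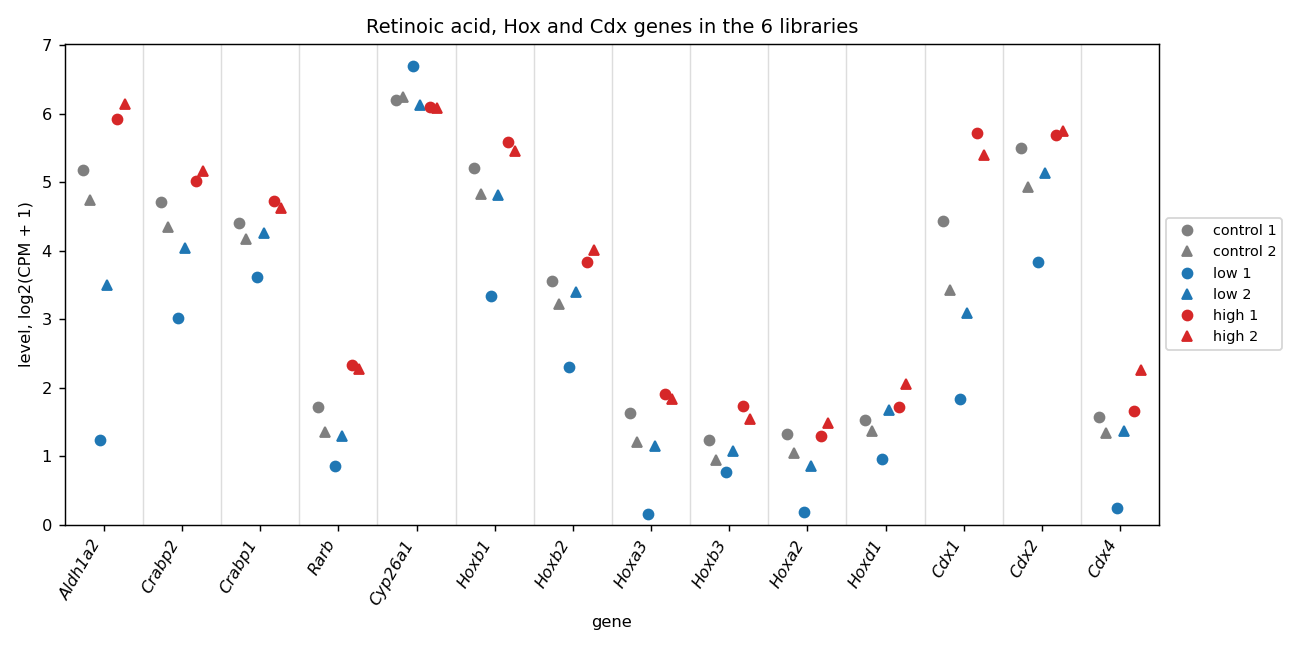
Levels of 14 genes in log2(CPM + 1) on the y axis, 1 point per library: controls grey, low blue and high red, with circles for library 1 and triangles for library 2. Low 1 is the lowest point for each gene but Cyp26a1, where it is the highest, and both high libraries lie above both low libraries for the other 13.

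Genes of the primitive streak and nascent mesoderm lay the other way, lower in the high group. Of 22 tested, 20 had a negative difference, 14 were lower without overlap (2 higher) and 15 had an unadjusted p under 0.05 on the lower side (2 on the higher), with a median of -0.39. The median was -0.33 without low 1, and 8 genes then had an unadjusted p under 0.05 on the lower side. Lefty2 (chromosome 1, 180893108 to 180899103), a Nodal antagonist made in the streak mesoderm, was at 131 and 113 CPM in the low, 89.2 and 87.2 CPM in the control and 64.1 and 54.9 CPM in the high libraries. The 3 groups did not overlap, and the difference was -1.02 (SE 0.09, adjusted p = 0.0998 by limma) or -0.92 without low 1. Mesp1, which marks cardiac mesoderm leaving the streak, was at 58.8 and 50.7 CPM in the low and 31.4 and 31.2 CPM in the high libraries (difference -0.78, SE 0.08, adjusted p = 0.131 by limma). Its controls, at 31.1 and 33.2 CPM, were level with the high libraries, so here the low group was the one apart. Mesp2, its neighbour and paralog, was at 9.37 and 7.35 against 4.67 and 4.50 CPM, and Wnt3, the ligand that starts the streak, at 21.3 and 16.04 against 11.8 and 11.2 CPM. Eomes, needed for mesoderm and endoderm to form, was at 233 and 137 CPM in the low and 109.9 and 86.5 CPM in the high libraries. Its low libraries were far apart, and the difference of -0.87 became -0.49 without low 1. Pdgfra and Tbx6, which come on as mesoderm matures, were the 2 members higher without overlap.

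Within the Nodal pathway the antagonist Lefty2 was the member with the smallest p, and there was no common direction: 6 of 17 genes were positive, and 3 lay higher and 4 lower without overlap. The median was -0.02, or -0.03 without low 1. Nodal, the ligand, overlapped at 15.998 and 8.30 against 8.97 and 6.09 CPM, and its coreceptor Tdgf1 was at 167 and 89.5 against 81.4 and 60.02 CPM. The antagonist Cer1, made in anterior endoderm, was at 127 and 102 against 87.6 and 80.03 CPM. Of 12 definitive endoderm genes 11 had negative differences, with a median of -0.21 (-0.12 without low 1), but only Cer1 and Epcam had an unadjusted p under 0.05.

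Pluripotency and epiblast genes were also lower in the high group for the most part: 15 of 19 were negative, 12 were lower without overlap (2 higher) and the median was -0.34, or -0.16 without low 1. Pou5f1, the central pluripotency factor, was at 541 and 455 CPM in the low, 415 and 498 CPM in the control and 415 and 357 CPM in the high libraries (difference -0.37, SE 0.12, adjusted p = 0.459 by limma). Utf1 and Fgf5, both of the epiblast, were at 96.8 and 55.6 against 48.9 and 35.9 CPM and at 65.9 and 33.9 against 31.5 and 23.1 CPM. In each of these 3 genes low 1 was the highest of the 6 libraries. With both low libraries 10 of the 19 had an unadjusted p under 0.05 by limma on the lower side and 2 on the higher. Positive differences numbered 4 with both low libraries and 5 without low 1. Nanog overlapped. One of the 2 that were higher was Lin28a, an RNA-binding protein, at 647 and 679 against 791 and 789.6 CPM. The other was Esrrb, an orphan receptor found in extraembryonic ectoderm at this age, at 3.17 and 0.747 against 7.02 and 5.77 CPM.

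Some FGF genes picked out here divided by role, and not every member without overlap is named. The ligands Fgf3, Fgf4 and Fgf5 and the induced feedback genes Spry2, Spry4, Etv1 and Etv5 were lower without overlap, whereas the receptors Fgfr1, Fgfr2 and Fgfr3 were higher. The split was seen after the values were known and has no test. Further genes beside these receptors lay higher without overlap and are not named, so the split does not describe the whole list. Fgfr2 was at 19.5 and 30.3 CPM in the low, 42.3 and 33.4 CPM in the control and 47.9 and 48.7 CPM in the high libraries (difference 0.96, SE 0.19, adjusted p = 0.267 by limma). Etv1, a transcription factor induced by FGF, was at 20.7 and 15.95 against 12.7 and 11.5 CPM, and Spry4, a feedback inhibitor, at 46.99 and 34.2 against 29.6 and 29.8 CPM. Fgf8, the main FGF of the streak, overlapped. Over the 23 genes 6 lay higher and 8 lower without overlap, and the median was -0.10, or -0.01 without low 1.

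Hedgehog genes were higher almost throughout, 13 of 14 positive (11 without low 1) and 10 of 14 without overlap, with a median of 0.30 (0.25 without low 1). Shh, the ligand of node and notochord, was at 0.414 and 1.57 CPM in the low, 2.90 and 2.63 CPM in the control and 4.25 and 3.91 CPM in the high libraries (difference 1.41, SE 0.25, adjusted p = 0.233 by limma). Gli1 and Ptch1, both direct targets of the pathway, were at 5.04 and 8.03 against 14.3 and 14.997 CPM and at 43.2 and 43.05 against 57.9 and 64.03 CPM. For Ptch1 the low libraries were level with each other, and leaving out low 1 left the difference at 0.49. Smo and Sufu, which pass on the signal and are not induced by it, had differences of 0.03 and 0.03. Gas1, a coreceptor that Hedgehog signalling represses, was lower at 47.4 and 47.2 against 37.2 and 35.95 CPM, with both low libraries above both controls as well. Whether Hedgehog signalling itself differed was not tested, and the sign for Smo turned when a library was left out.

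Wnt genes lay in both directions, with 19 of 44 higher and 10 of 44 lower without overlap and a median of 0.09. On the higher side were Wnt8a, at 15.4 and 20.2 against 29.1 and 29.9 CPM, Wnt3a of the caudal streak, at 6.46 and 10.7 against 15.1 and 14.3 CPM, and Ror1, a receptor for Wnt5a, at 20.8 and 24.4 against 34.2 and 33.3 CPM. On the lower side, beside Wnt3, were Wnt2b, at 39.3 and 38.3 against 29.9 and 26.9 CPM, and Sp5, a direct Wnt target, at 67.1 and 66.6 against 55.4 and 48.9 CPM. Axin2, the usual readout of canonical Wnt signalling, was at 55.997 and 74.04 CPM in the low, 82.1 and 72.7 CPM in the control and 84.7 and 77.7 CPM in the high libraries. Its difference of 0.33 was 0.13 without low 1. Ctnnb1, the beta-catenin gene, overlapped with a difference of 0.02.

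Heart field, paraxial mesoderm and neural plate genes had higher values in the high group for the most part. In the heart field 9 of 12 genes lay higher without overlap (2 lower), with a median of 0.76. In paraxial mesoderm the counts were 8 of 12 and 2 lower (median 0.52), and in the neural plate 12 of 20 and 5 lower (median 0.41). Leaving out low 1 gave medians of 0.42, 0.20 and 0.18, and the heart field genes with an unadjusted p under 0.05 on the higher side went from 9 to 4. Gata5, a heart regulator, was at 1.05 and 3.09 against 4.72 and 6.99 CPM and Hand2, of the lateral mesoderm, at 2.94 and 4.45 against 6.61 and 7.94 CPM. The somite gene Tcf15 was at 1.37 and 2.56 against 4.40 and 4.94 CPM, and Sox1, the earliest neural plate marker, at 0.242 and 0.907 against 2.25 and 2.88 CPM. Most of these were low in absolute terms, and in all 4 both controls lay below both high libraries. Hesx1, of the anterior neural plate, was nearly equal within each group, at 2.69 and 2.75 CPM in the low, 3.54 and 3.54 CPM in the control and 4.87 and 5.48 CPM in the high libraries (difference 0.73, SE 0.10, adjusted p = 0.233 by limma). Zic2, Zic5 and Otx2, which the epiblast already expresses, were the larger of the lower neural plate genes, with Zic2 at 139 and 112 against 95.8 and 79.3 CPM. In bulk RNA fewer cells of a type and less RNA per cell cannot be told apart.

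Stage lists give these directions in another form. One list held 22 genes known to be high early in gastrulation and to decline, and the other 21 measured genes known to come on by the headfold stage, leaving out genes already named for this comparison in earlier work on these data. Many of their members are also in the lists above, so the 2 are not separate evidence. Of the earlier genes 21 of 22 were negative and 14 were lower without overlap (median -0.43), with Wnt8a the one exception. Of the later genes 15 of 21 were positive and 13 were higher without overlap (median 0.47). The mean level of the earlier list was 5.71 and 5.19 in the low libraries, 5.23 and 5.51 in the controls and 5.15 and 4.90 in the high libraries, in log2(CPM + 1). That of the later list was 2.69 and 2.90, 3.11 and 2.75, and 3.15 and 3.27. Low 1 was thus at the early end on both lists and high 2 at the late end on both. Control 2 lay next to low 1 on both lists, and on the earlier list low 2 was closer to high 1 than to low 1. Without low 1 the medians were -0.20 and 0.21. The embryos' stage was not given per library, and its part in the differences between the doses was not tested.

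**Figure D3:**
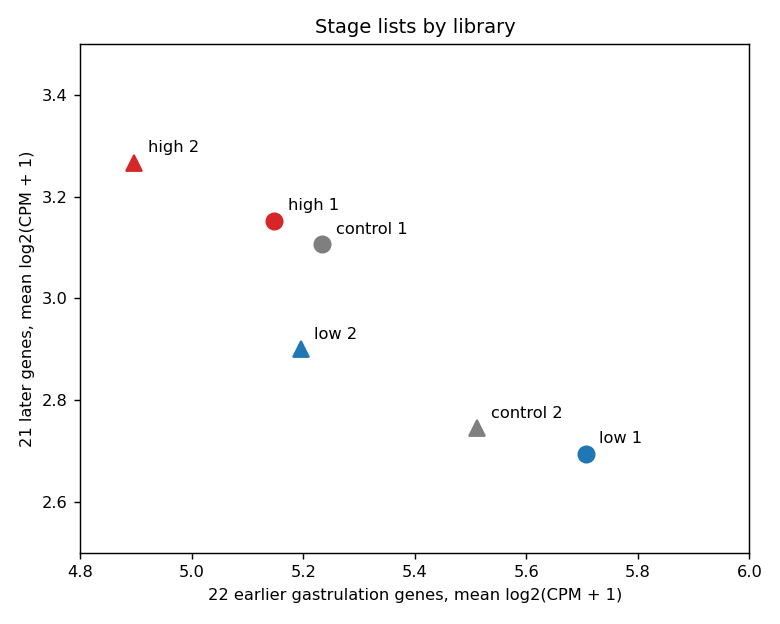
Each point is a library: the x axis is the mean log2(CPM + 1) of 22 genes high early in gastrulation and the y axis that of 21 genes that come on later (axes do not start at 0). Circles are library 1 and triangles library 2 of the controls (grey), low (blue) and high (red) groups; low 1 lies at 5.71 and 2.69 and high 2 at 4.90 and 3.27.

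Matrix and basement membrane genes were higher in 31 of 34 cases and without overlap in 22 (1 lower), with a median of 0.34, or 0.18 without low 1. Htra1, a secreted protease, was at 3.16 and 3.84 CPM in the low, 5.21 and 3.56 CPM in the control and 8.76 and 9.68 CPM in the high libraries (difference 1.19, SE 0.16, adjusted p = 0.233 by limma, and 0.0366 with the high and low libraries alone). Fbn1, which encodes the microfibril protein fibrillin, was at 5.28 and 6.69, 8.02 and 8.17 and 11.3 and 11.3 CPM, and Vcan, the proteoglycan versican, at 26.8 and 27.3, 32.6 and 30.4 and 39.998 and 57.2 CPM, in the order low, control and high. In these 3 genes both high libraries exceeded all 4 others. Fn1, the fibronectin gene and the most abundant of the list, was slightly lower without overlap, at 1088 and 1099.8 against 1040.1 and 1014 CPM.

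Parietal endoderm, the layer that makes the thick membrane around the embryo, shares many of these genes, and its list was higher in 12 of 15 cases, with 10 higher without overlap (median 0.44). Lama1, a laminin chain, was at 33.9 and 42.4 CPM in the low and 124 and 109 CPM in the high libraries, but the controls were at 231 and 48.98 CPM. Control 1 was thus above every other library, and control 2 was level with the low group. The collagen IV genes Col4a1, at 275 and 305 against 454 and 452 CPM, and Col4a2, at 107 and 122 against 199 and 192 CPM, and the endodermal transcription factor gene Sox7, at 2.04 and 2.32 against 6.72 and 6.61 CPM, had the same pattern, with control 1 at 768, 349 and 9.87 CPM. The spread between the controls enters the fit of 3 groups. With the high and low libraries alone the adjusted p by limma was 0.0235 for Lama1, 0.0451 for Col4a1, 0.0366 for Col4a2 and 0.0366 for Sox7, against 0.527, 0.842, 0.816 and 0.595 with all 3 groups. The summed level of the 15 parietal endoderm genes was 1275 and 1306 CPM in the low, 1854 and 1832 CPM in the high and 2852 and 1268 CPM in the control libraries, and how much of that tissue was in each library was not tested.

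The 9 genes called with the high and low libraries alone were Htra1, Lama1, Sox7, Col4a1, Col4a2, Lefty2, Mesp1, Fabp3 and the predicted gene Gm23935. Fabp3, a fatty acid carrier, was at 4.82 and 5.35 CPM in the low, 12.3 and 5.98 CPM in the control and 11.1 and 11.3 CPM in the high libraries. Gm23935 was at 128 and 125, 56.6 and 36.6 and 192 and 195 CPM in low, control and high. It is a short predicted gene with no role given here, and both exposed groups lay above both controls.

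Some markers of other cell types set low 1 apart. It was the highest of the 6 libraries in 7 of 15 trophoblast genes and the lowest in 4. For blood and endothelium it was highest in 4 of 13 genes and lowest in 1. Over all 12987 genes low 1 was highest in 2350 and lowest in 2652. Prl3d1, the placental lactogen of trophoblast giant cells, was at 28.4 and 0.407 CPM in the low, 9.72 and 0.754 CPM in the control and 0.364 and 2.37 CPM in the high libraries. Plac1, another placental gene, was at 24.4 and 2.85 against 2.48 and 4.55 CPM, and Cdh5, the endothelial cadherin gene, at 42.3 and 0.4997 against 0.864 and 2.98 CPM. In all 3 low 1 was the highest of the 6 libraries by far, and the doses overlapped. Without low 1 the differences of high minus low turned from -1.58, -1.17 and -1.57 to 0.61, 0.19 and 0.86. The summed level of the 15 trophoblast genes was 554 and 419 CPM in the low and 426 and 447 CPM in the high libraries. Among these genes 5 were higher and 2 lower without overlap, and 4 of the higher ones are known in the undifferentiated extraembryonic ectoderm or in the embryo as well: Esrrb, Sox21, Fgfr2 and Cdx2. Without low 1 the list's median turned from -0.23 to 0.18. How much trophoblast each library held was not tested.

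**Figure D4:**
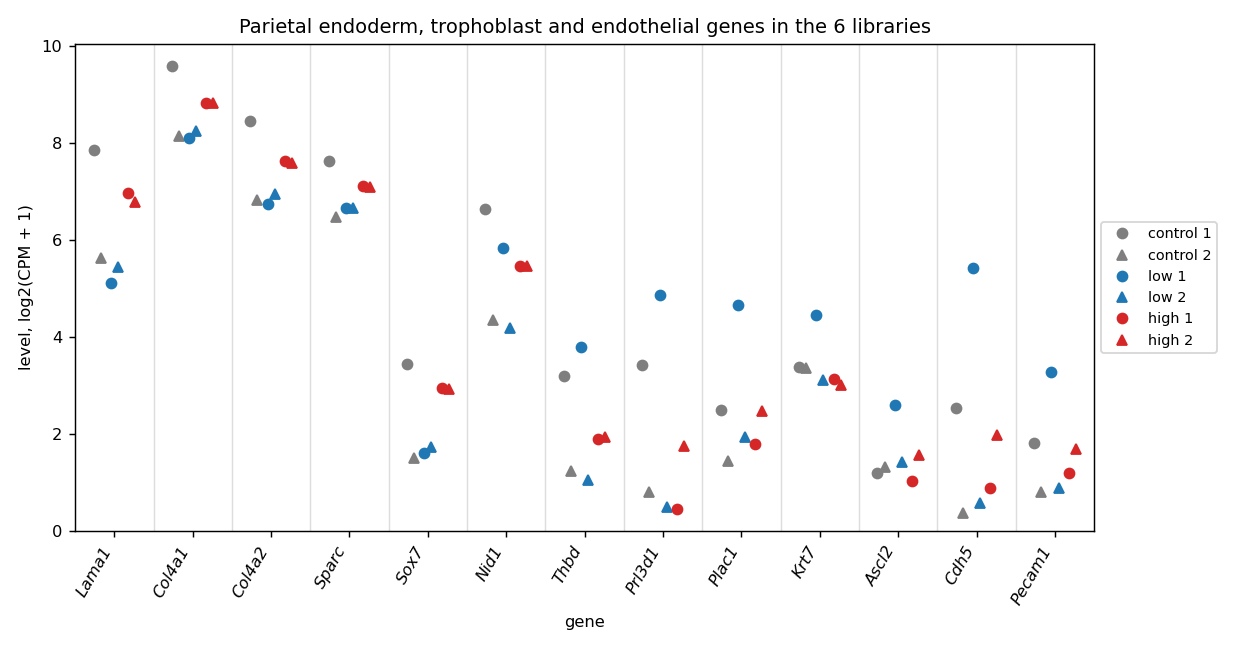
Levels of 13 genes of parietal endoderm (Lama1 to Thbd), trophoblast (Prl3d1 to Ascl2) and endothelium (Cdh5 and Pecam1) in log2(CPM + 1), 1 point per library, with controls grey, low blue and high red, circles for library 1 and triangles for library 2. Low 1 is the highest point from Thbd to Pecam1, and control 1 is the highest from Lama1 to Nid1. The genes shown were picked and do not stand for their lists. Low 1 was highest in 7 of 15 trophoblast genes (lowest in 4) and in 4 of 13 blood and endothelium genes (lowest in 1).

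Visceral endoderm genes had a positive difference in 31 of 33 cases, yet 11 lay higher and 1 lower without overlap and 3 had an unadjusted p under 0.05 (median 0.20, or 0.12 without low 1). Lrp2, the endocytic receptor megalin, was at 105 and 110.3 against 131 and 169 CPM. Apob, the lipoprotein gene, overlapped at 667 and 809 against 661 and 928 CPM. Extraembryonic mesoderm followed the same form, 13 of 16 positive with a median of 0.46 (0.21 without low 1) but 4 without overlap, and high 2 was its highest library, with Igf2, a growth factor, at 148 and 236 against 292 and 355 CPM. Of 10 genes of decidua and maternal blood 4 were higher and 2 lower without overlap. Their median was 0.20, or 0.03 without low 1, and the globin gene Hba-a1 stayed at 1.48 to 2.88 CPM in all 6 libraries. The blood and endothelium list, with 13 genes measured, had 6 positive and a median of 0.00, but 10 positive and a median of 0.31 without low 1. Tal1, a regulator of blood progenitors, was higher at 1.95 and 4.49 against 6.91 and 9.15 CPM.

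BMP genes had a positive difference in 19 of 25 cases and 7 lay higher and 4 lower without overlap (median 0.17, or 0.05 without low 1). Id2, a BMP target, was at 18.6 and 25.8 against 32.4 and 42.5 CPM. The antagonists Nog and Chrd, of node and notochord, differed in direction, with Nog at 1.53 and 3.26 against 4.63 and 4.55 CPM and Chrd at 39.02 and 40.05 against 33.7 and 24.5 CPM. Of 13 node and notochord genes 5 lay higher and 3 lower without overlap, and the median of 0.15 was -0.04 without low 1.

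Genes of stress, metabolism and the cell cycle had medians near that of all genes. The median difference was -0.01 for 25 genes of endoplasmic reticulum stress, 0.02 for 27 Nrf2 and glutathione genes, -0.03 for 24 p53 targets, -0.01 for 28 glycolysis and hypoxia genes and 0.00 for 26 cholesterol synthesis genes, against 0.01 for all genes. Of 21 PPAR targets and fatty acid oxidation genes, the group nearest to the known receptors of phthalate metabolites, 7 lay higher and 2 lower without overlap, and 1, Fabp3, had an unadjusted p under 0.05. Of the Nrf2 and glutathione genes 8 lay higher and 3 lower without overlap. Of the p53 targets 18 of 24 were negative, and 3 lay higher and 7 lower without overlap. Among them Pmaip1, which promotes cell death, was lower at 78.4 and 63.1 against 42.1 and 46.3 CPM. Of 17 immediate early genes 3 lay higher and 4 lower without overlap, with a median of -0.02. The 39 replication genes had a median of 0.02, and the 35 mitosis genes one of 0.07 with 33 positive, 15 higher and 0 lower without overlap and 3 at an unadjusted p under 0.05. The 84 cytosolic ribosomal protein genes and the 76 respiratory chain genes had medians of 0.00 and 0.00. The medians of these lists without low 1 ran from -0.03 to 0.08, the highest being that of the immediate early genes.

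Chromatin genes were likewise near 0, with medians of 0.02 for 31 Polycomb genes and 0.01 for 15 genes of the DNA methylation machinery (0.00 and 0.03 without low 1). Of the latter 5 lay higher and 2 lower without overlap, and 2 members of opposite direction follow. Dnmt3b, the methyltransferase of the epiblast, was at 1519 and 1202 CPM in the low, 1191 and 1389.5 CPM in the control and 1089 and 939.9 CPM in the high libraries. The difference for Dnmt3b was -0.42, or -0.25 without low 1. Dnmt3l, its cofactor without catalytic activity, was at 2.53 and 1.65, 2.72 and 2.12 and 5.19 and 4.24 CPM (difference 0.90, SE 0.17, adjusted p = 0.256 by limma). For Dnmt3l both high libraries exceeded all 4 others, and the difference without low 1 was 1.10. Of 35 imprinted genes 29 were positive and 14 lay higher without overlap (1 lower), with a median of 0.12, or 0.07 without low 1. They included Igf2 and Dlk1, both paternally expressed, with Dlk1 at 8.47 and 19.2 against 21.8 and 32.8 CPM, and Plagl1, a zinc finger factor, at 1.29 and 2.79 against 3.92 and 6.09 CPM. Low 1 was the lowest of the 6 libraries in 21 of the 35, against 2652 of all 12987 genes.

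Outside these lists, the named genes with the smallest p on the higher side were Thsd4, Nes, Grsf1, Limch1 and Ddah1. Nes, the intermediate filament nestin, was at 51.5 and 53.3 CPM in the low, 61.1 and 61.6 CPM in the control and 67.8 and 67.6 CPM in the high libraries. Grsf1, a mitochondrial RNA-binding protein, was at 106 and 131, 144 and 139 and 177 and 184 CPM. In both the groups were in the order low, control and high, with no overlap between any pair. On the lower side were Vrtn, at 159 and 147 against 117 and 108 CPM, Dclk1, Frzb, Ypel3, Grrp1, Adcyap1r1 and Adamtsl2. Frzb, a secreted Wnt antagonist, was at 56.7 and 55.2, 49.2 and 52.5 and 44.6 and 42.3 CPM in low, control and high, with the controls between. The adjusted p by limma of these 12 genes ran from 0.233 to 0.28.

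**Figure D5:**
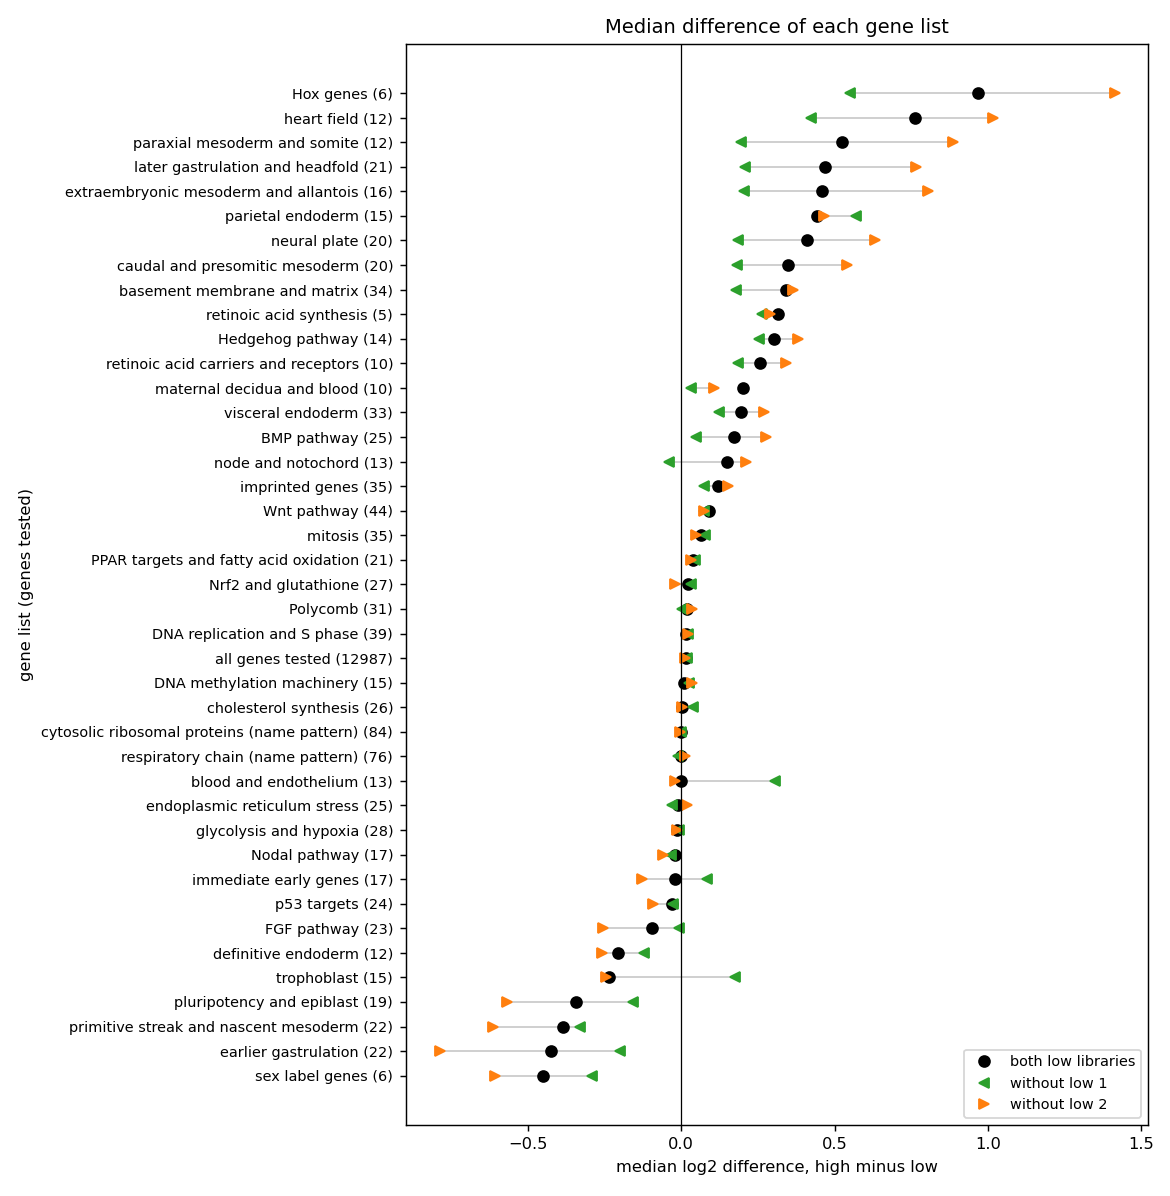
Each row is a gene list with the number of its genes tested; black circles are the median log2 difference of high minus low over its genes, green triangles the median without low 1 and orange triangles that without low 2 (lists under 5 genes tested are left out, and lists share members). With both low libraries Hox genes stand highest, at 0.97, whereas without low 1 they are at 0.55 and parietal endoderm at 0.57. Most metabolic and stress lists lie near 0, and without low 1 the medians of trophoblast, blood and endothelium, node and notochord, immediate early and ribosomal protein genes change sign.

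Without low 2 the median was 1.41 for the Hox genes and -0.79 for the earlier gastrulation list, and limma called 291 genes, but the low group was then low 1 alone. Without low 1, 2 genes were called, Aldh1a2 and Esrrb, with low 2 standing alone. A group of 1 library was assumed to vary like the other groups in these fits.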

How the data were processed

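RNA was extracted with a spin-column kit and sequenced as standard Illumina libraries, per the labels' protocols. The table holds CPM values deposited by the authors for 6 libraries. TopHat, Bowtie 0.12.2, SAMtools and edgeR are among the tools named, with no role, per the submitters' processing notes, which also name Trim Galore, Bowtie2, Bismark and methylKit. Gene spans overlapped those of GRCm38.p6 for 99.97% of 12727 genes matched by symbol. Of 105 genes without a symbol 16 were named from the reference table. The 3 lines without a gene, which stayed out of the tests, took 20.8 to 22.9% (not unique), 0.444 to 0.470% (ambiguous) and 6.31 to 6.83% (no feature) of each column. All values of a library were whole multiples of 1 step within 0.01 step, and columns summed to 982921 to 1017434. The steps were read as relative depth only, so no interval for counting error is given and no count test was run.

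The CPM were tested as log2(CPM + 1). The tool was limma 3.58.1 (R 4.3.3) with a trend, 3 groups in 1 fit (3 residual degrees of freedom) and Benjamini-Hochberg adjustment over 12987 genes. Differences on this scale understate changes of low genes. Limma was first tested on simulated data. With 2 libraries against 2, an exact two-sided permutation test of a single value cannot go below p = 0.333, so none is given. The tissue of the columns is not given in the sources used here. The controls entered the fit but were not tested against either dose.

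The comparison, the 39 gene lists and the tests were chosen with earlier results of these data known, and 2 further lists were made by name pattern after the values were seen. Text names called genes, the 12 genes per direction with the smallest p whose libraries do not overlap, up to 6 genes per list with the smallest p, the 4 largest differences per direction at 20 CPM or more, and all Hox, Cdx and retinoic acid genes, with other members named for their role. Alternatives were pseudocounts of 0.1 and 5, filters, limma without a trend, the high and low libraries alone, 2 scalings, a replicate block and each library left out. Some genes of these lists are not reported here and were left out of the lists' counts and medians. Methylation data were not used here.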

Additional observations from a re-analysis of the deposited data

How the results depend on the processing

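The count of called genes was 0 as reported (739 higher and 288 lower at an unadjusted p under 0.05), and was 0 under pseudocounts of 0.1 and 5, no filter, a minimum of 5 CPM, no trend, quantile normalization, median-ratio size factors and without either high library. It was 9 with the high and low libraries alone. With a library left out it ran from 0 to 291, with 2 without low 1, 291 without low 2 and 9 without either control. The higher genes at an unadjusted p under 0.05 then numbered 350 to 1043, with 350 without low 1 and 378 without high 2. The lower genes numbered 93 to 558, with 93 without low 1, 167 without high 2 and 558 without low 2. The cause was not tested, beyond that these fits hold a group of 1 library. The column numbers do not come from the labels, and same-numbered libraries deviated with correlations of 0.09, -0.07 and 0.00 across genes, so they share only a number. With that number as a replicate block 0 genes were called, and 686 were higher and 283 lower. Leaving out 1 library turned the sign of small or overlapping differences: Cdh5 ran from -3.99 to 0.86, Plac1 from -2.53 to 0.19, Prl3d1 from -3.77 to 0.61, Apob from -0.15 to 0.34, Rdh11 from -0.37 to 0.018, Rxrb from -0.14 to 0.0048, Rxrg from -0.39 to 0.029, Smo from -0.0301 to 0.0951 and T from -0.33 to 0.10. No other setting turned the sign of a gene compared in the text. Among 41 list medians 4 changed sign under quantile normalization and 6 under median ratios, which moved the median of all genes from 0.01 to -0.01 and -0.01. The planned edgeR test on recovered reads was not run, since the steps could not be shown to be reads. Counts of list members without low 1, and the 2 lists by name pattern, were chosen after seeing the data. What depth limits was not tested, since the steps could not be shown to be reads.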
